A study of Mus musculus with 5 samples.

Results

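The 10 genes described here, of matrix breakdown and its control, were followed across 5 RNA sequencing libraries of mouse peritoneal cells. They were taken by symbol from the deposited expression table and were the 6 matrix metalloprotease (MMP) genes Mmp8, Mmp9, Mmp12, Mmp13, Mmp14 and Mmp19, the ADAM protease genes Adam8 and Adam17, and the inhibitor genes Timp1 and Timp2. All 10 symbols were found among the 22815 listed, and all 10 were among the 11117 genes tested. The cells were washed from the abdominal cavity of 8-week-old mice and profiled by Smart-seq2, which amplifies full-length cDNA from little polyadenylated RNA. The groups were wild-type mice of the C57BL/6 strain (WT) that received phosphate-buffered saline (WT PBS, 1 library), WT mice that received pristane (2 libraries) and Irf8-deficient mice given pristane (2 libraries, labelled Irf8KO). Pristane is a hydrocarbon oil that sets off lasting sterile inflammation in the peritoneum. Irf8-deficient mice given PBS are not analysed here, so pristane and genotype could be compared only along the 3 pairs of groups present. The kind of Irf8 allele, the time after injection and the number of animals per library were left out, as not given in the sources used here. Labels leave it unsaid whether replicates are separate animals, and p-values measure only the spread between these libraries.

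MMPs are zinc proteases that are made as inactive precursors and, once their propeptide is removed, cut collagens, elastin, gelatin and many signalling proteins. ADAMs are membrane-bound relatives that mostly cut other proteins off the cell surface. TIMPs are small secreted proteins that block the active site of MMPs and of some ADAMs. Which ADAMs each TIMP blocks was not examined here. In inflamed tissue neutrophils carry ready-made MMP8 and MMP9 in their granules, while macrophages make MMP12, MMP14 and MMP19 on demand.

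Values are FPKM, fragments scaled to transcript length and to the library's total, so levels of different genes can be set side by side. From the spacing of the lowest values the libraries held about 2259000 (WT PBS) to 4773000 (Irf8KO pristane replicate 1) assigned fragments, so that a single fragment amounted to 0.210 to 0.443 FPKM for a 1 kb transcript. The genotype label was not matched by the gene itself. Irf8 stood at 32.4 FPKM with PBS, 63.3 and 48.7 FPKM in WT pristane and, where the label is Irf8KO, at 120.5 and 59.4 FPKM (log2 change 0.60 ± 0.41 SE, adjusted p = 0.471, limma). Gene totals do not show whether a transcript is functional, and directions below are those of the libraries labelled Irf8KO. Transcripts that mark sex differed too: the Y-linked Eif2s3y was listed at 0 in WT PBS and WT pristane replicate 2 and stood at 12.9 to 25.6 FPKM in the other 3. The WT pristane libraries thus differed in the sex of their source, with Xist listed at 0 in replicate 1 and at 8.81 FPKM in replicate 2, and sex cannot be told apart from other differences between them. The libraries labelled Irf8KO were alike in both transcripts, and the source of the spread between them was not tested.

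With PBS an inhibitor stood highest. In the WT PBS library Timp2 stood highest at 40.2 FPKM, followed by Adam8 at 11.1, Adam17 at 9.37, Mmp9 at 4.66 and Mmp19 at 1.65 FPKM. Timp1, Mmp8, Mmp12 and Mmp14 all lay between 0.344 and 0.706 FPKM, and Mmp13 was listed at 0. In both pristane groups the order was another. Adam8 was the most abundant member in WT pristane (138 and 369 FPKM), with Mmp9, Timp1 and Mmp8 next by group mean. Mmp9 led in the libraries labelled Irf8KO (435 and 281 FPKM), followed by Mmp8 and then Adam8. In WT pristane these 3 places were not separable, since the libraries of Mmp9, Timp1 and Mmp8 overlapped. In the libraries labelled Irf8KO the ranges of Mmp9 and Mmp8 overlapped as well, and Mmp13 was lowest in all 5 libraries.

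**Figure D1:**
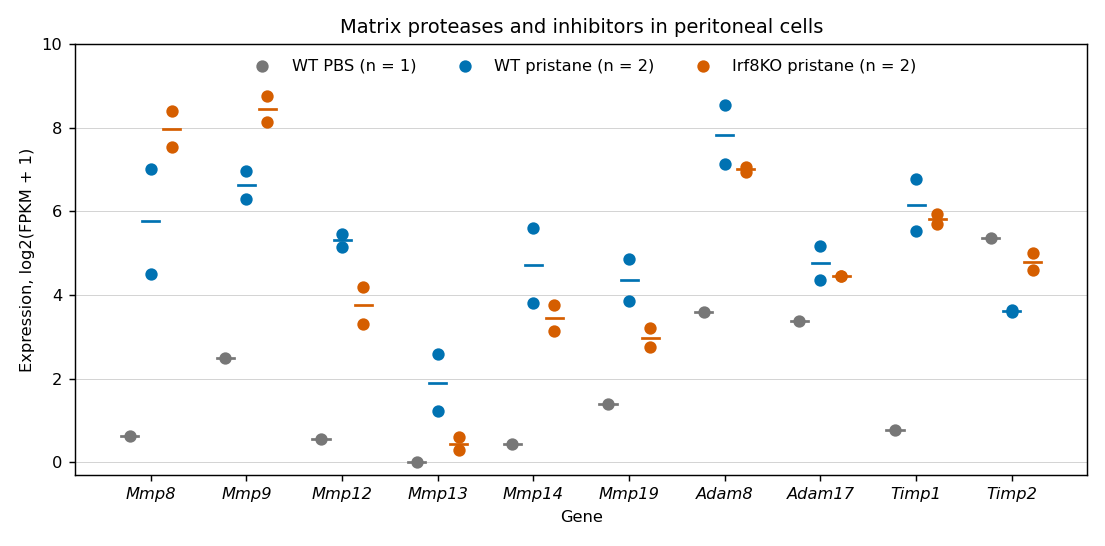
Level of each of the 10 genes as log2(FPKM + 1), with 1 point per library and a short bar at the group mean. WT PBS is the lowest group for every gene except Timp2, where it is the highest, and only Adam17 and Timp1 have overlapping pristane groups.

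WT pristane against WT PBS compared the oil with saline in mice of 1 genotype. Sex was not held constant in this comparison. Xist reached 43.5 FPKM in the PBS library but was listed at 0 in WT pristane replicate 1, which carried Eif2s3y instead. Timp1, one of the genes compared, is X-linked, and the part of sex in these changes was not tested. Of the 10 genes 5 rose, Mmp9, Mmp12, Mmp19, Adam8 and Timp1, and Timp2 fell, while Mmp8, Mmp13, Mmp14 and Adam17 did not pass the test. The test was limma on log2(FPKM + 1) with Benjamini-Hochberg adjustment over all genes, called at an adjusted p under 0.05, and log2 changes carry their standard error (SE). Of all genes tested 5.18% were called higher and 5.46% lower (10.6% in either direction). The balance depended on settings: 576 genes were higher and 607 lower, against 372 and 901 with no filter, 513 and 333 with a pseudocount of 0.1, and 808 and 368 among genes with a mean of at least 5 FPKM. All 10 had an unadjusted p under 0.05, 9 higher and 1 lower, where 33.8% of all genes did (15.9% higher, 17.8% lower). Both pristane libraries lay above the PBS library for 9 genes and below it for Timp2, where 37.3% and 44.5% of all genes did so. The median log2 change over the 10 genes was 4.18, beside −0.071 over all genes tested. Of the 10 genes 5 (Timp1, Mmp8, Mmp12, Mmp13 and Mmp14) lay under 1 FPKM with PBS and entered the test only through their pristane values, so a difference was built into their selection. The fit had to assume that the single PBS library varies like the pristane pairs. No call stood when any 1 of the 4 pristane libraries was left out, which leaves 1 residual degree of freedom: the adjusted p of the 6 called genes then ran from 0.0726 to 0.161.

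Mmp9 encodes gelatinase B, which neutrophils store in tertiary granules and macrophages secrete. Mmp9 stood at 4.66 FPKM with PBS and at 124 and 78.0 FPKM in WT pristane, a log2 change of 4.13 ± 0.43 (SE, adjusted p = 0.0288, limma). Both pristane libraries were far above the PBS library and close to each other, within a factor of 1.58. Mmp12 encodes macrophage elastase. Mmp12 stood at 0.476 FPKM with PBS; with pristane it reached 34.4 and 43.0 FPKM (log2 change 4.74 ± 0.46 SE, adjusted p = 0.0267). Its pristane libraries differed by a factor of 1.25, the smallest spread of any MMP here, against a PBS value of about 5 fragments. Mmp19, a protease of macrophages and of vessel walls, reached 13.5 and 28.3 FPKM with pristane from 1.65 FPKM with PBS (log2 change 2.96 ± 0.53 SE, adjusted p = 0.0487). The Mmp19 call depended on settings: its adjusted p was 0.0531 with a pseudocount of 0.1, 0.0539 with libraries scaled to equal sums and 0.0795 with no filter on low values.

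Mmp8 and Mmp14 did not pass, with log2 changes of the size of the called genes and libraries that were less even. Mmp8 encodes neutrophil collagenase, a protein of specific granules. Mmp8 stood at 0.552 FPKM with PBS and at 21.7 and 128 FPKM in WT pristane, 5.91 times higher in replicate 2 than in replicate 1 (log2 change 5.13 ± 1.16 SE, adjusted p = 0.0694). The PBS value amounts to about 3 fragments, so the ratio of 119.7 to PBS has a 95% exact counting interval from 40.8 to 581. Such intervals cover counting error only. The adjusted p of Mmp8 was 0.0301 among genes with a mean of at least 5 FPKM and 0.0371 with robust variances. Mmp14 encodes a membrane-anchored protease that cuts collagen at the cell surface and activates the MMP2 precursor. Mmp14 stood at 0.344 FPKM with PBS and at 47.5 and 13.1 FPKM in WT pristane (log2 change 4.28 ± 0.84 SE, adjusted p = 0.0557). Here replicate 1 was the higher library, by a factor of 3.63, the opposite order to Mmp8. Its call turned on settings: the adjusted p was 0.0237 among genes with a mean of at least 5 FPKM and 0.0476 with equal sums. Mmp13, a collagenase of bone and inflamed tissue, was listed at 0 with PBS but reached 1.33 and 5.005 FPKM in WT pristane, about 14 and 38 fragments. An exact 0 in such a table can be a failed estimate, so no fold is given for Mmp13 against PBS (adjusted p = 0.132).

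Adam8, a protease of activated neutrophils and macrophages that cuts adhesion molecules, reached 138 and 369 FPKM with pristane from 11.1 FPKM with PBS (log2 change 4.23 ± 0.64 SE, adjusted p = 0.0392). With no filter on low values its adjusted p was 0.066. Adam17, the enzyme that releases tumour necrosis factor from the cell surface, had the smallest difference of the 7 proteases detected with PBS. Adam17 stood at 9.37 FPKM with PBS and at 34.7 and 19.6 FPKM in WT pristane (log2 change 1.39 ± 0.39 SE, adjusted p = 0.0981). Both pristane libraries lay above PBS, with a 95% interval from 0.30 to 2.47 on the log2 scale.

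The inhibitors went opposite ways. Timp1, the TIMP that inflammatory signals induce, reached 45.1 and 109 FPKM with pristane from 0.706 FPKM with PBS (log2 change 5.38 ± 0.58 SE, adjusted p = 0.0292). The PBS value is worth about 1 fragment, and the ratio of 142.7 estimated from fragments has a 95% exact counting interval from 25.5 to 5649. Timp2, a constitutively made TIMP that also helps MMP14 to activate MMP2, dropped to 11.5 and 11.1 FPKM with pristane from 40.2 FPKM with PBS (log2 change −1.74 ± 0.25 SE, adjusted p = 0.0375). The WT pristane libraries agreed on Timp2 within a factor of 1.04. Timp1 was thus 1.73% of the Timp1 and Timp2 signal with PBS and 79.6% and 90.8% of it in WT pristane.

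Irf8KO pristane against WT PBS shared its PBS library with the comparison above. Its groups also differed in the transcripts that mark sex, and Timp1 lies on the X chromosome. Mmp8, Mmp9, Mmp12 and Timp1 rose, 0 of the 10 fell, and 6 did not pass, where 3.81% of all genes were called higher and 4.72% lower (8.54% in either direction). At an unadjusted p under 0.05, 7 were higher and 0 lower, where 33.7% of all genes passed (15.6% higher, 18.1% lower). Both libraries lay above PBS for 9 genes and below it for Timp2, as for 40.7% and 46% of all genes. The called Mmp8, Mmp12 and Timp1, like Mmp13 and Mmp14, lay under 1 FPKM with PBS. They entered the test only through their pristane values, so a difference was built into their selection here too. Where the label is Irf8KO, Mmp8 reached 336 and 186 FPKM (log2 change 7.34 ± 1.16 SE, adjusted p = 0.0457). With about 3 PBS fragments its ratio to PBS was 502, with a 95% exact counting interval from 172 to 2434. Mmp9 stood at 435 and 281 FPKM (change 5.95 ± 0.43 SE on the log2 scale, adjusted p = 0.0274). Timp1 reached 50.8 and 60.2 FPKM (log2 change 5.04 ± 0.58 SE, adjusted p = 0.0342). Mmp12 stood at 17.4 and 8.87 FPKM (log2 change 3.19 ± 0.46 SE, adjusted p = 0.0416). With no filter on low values Mmp8 and Mmp12 no longer passed, at an adjusted p of 0.0733 and 0.0608.

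Adam8, Mmp14, Mmp19, Adam17, Timp2 and Mmp13 did not pass. Adam8 stood at 133 and 121 FPKM (log2 change 3.40 ± 0.64 SE, adjusted p = 0.0556). Its adjusted p was 0.0263 among genes with a mean of at least 5 FPKM. Mmp14 stood at 12.5 and 7.75 FPKM (change 3.01 ± 0.84 SE on the log2 scale, adjusted p = 0.10). Mmp19 reached 5.72 and 8.21 FPKM (log2 change 1.57 ± 0.53 SE, adjusted p = 0.132). Adam17, at 20.9 and 21.0 FPKM, had nearly equal libraries (log2 change 1.08 ± 0.39 SE, adjusted p = 0.149). Timp2, at 23.1 and 30.9 FPKM, lay below the PBS value in both libraries (log2 change −0.57 ± 0.25 SE, adjusted p = 0.207). Leaving out any 1 of the 4 pristane libraries took the 4 calls to an adjusted p from 0.0642 to 0.214.

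**Figure D2:**
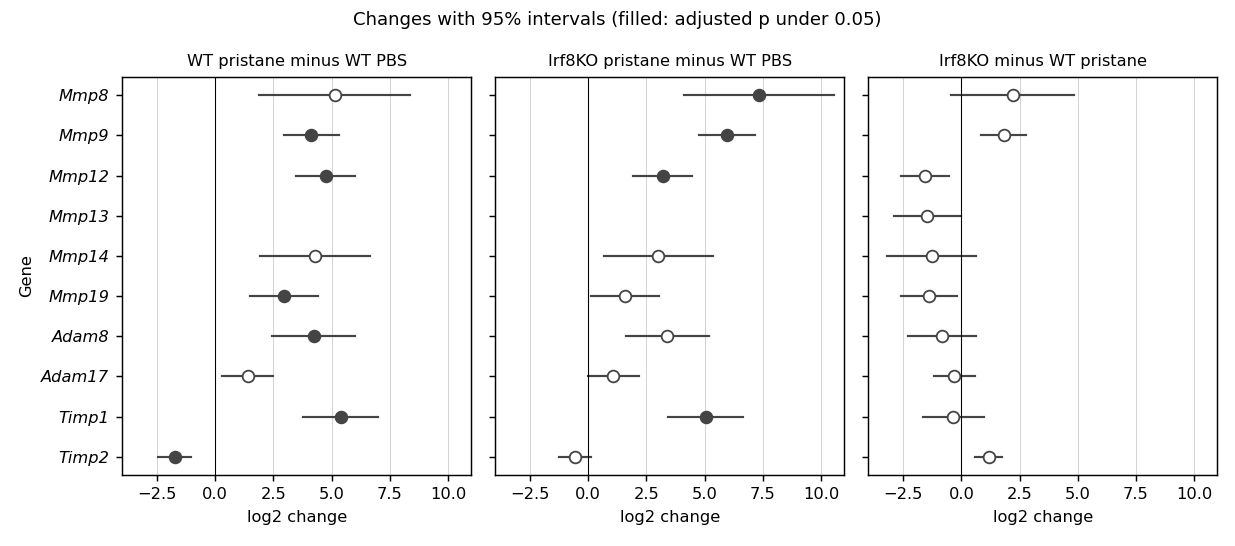
Log2 change of each gene in the 3 comparisons, with its 95% interval (limma) and a filled point where the adjusted p was under 0.05. Mmp13 is left out of both PBS panels because it was listed at 0 there; no point is filled for the libraries labelled Irf8KO against WT pristane.

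Irf8KO pristane against WT pristane asked how the response differed with the genotype label. Sex was mixed here as well: among the pristane libraries, WT replicate 2 alone lacked Eif2s3y. Its part in the differences below was not tested. None of the 10 genes passed the threshold, where 0% of all genes were called higher and 0.027% lower (limma, 3 genes in all). Of the 10 genes 5 had an unadjusted p under 0.05, Mmp9 and Timp2 on the higher side and Mmp12, Mmp13 and Mmp19 on the lower side, where 20.6% of all genes had one (10.5% higher, 10.1% lower). The libraries of the 2 groups did not overlap for 8 of the 10 genes, 3 higher (Mmp8, Mmp9 and Timp2) and 5 lower (Mmp12, Mmp13, Mmp14, Mmp19 and Adam8), where 26.1% and 27.1% of all genes did so. For a single value, 2 libraries against 2 cannot give an exact permutation p below 0.333. When the 4 pristane libraries were fitted alone, 1 member passed, Mmp9, with an adjusted p of 0.0421.

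On the higher side, Mmp9 had a log2 change of 1.82 ± 0.35 (SE, adjusted p = 0.128, 95% interval 0.85 to 2.79). The mean of the libraries labelled Irf8KO was 3.55 times that of WT pristane. Mmp8 had a ratio of means of 3.48 and a log2 change of 2.21 ± 0.95 (SE, adjusted p = 0.297). Its 95% interval ran from −0.43 to 4.85, and the change was 0.96 without WT pristane replicate 1. Timp2 had a ratio of 2.39 and a log2 change of 1.17 ± 0.21 (SE, adjusted p = 0.117), so its libraries labelled Irf8KO lay between WT pristane and WT PBS.

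On the lower side, Mmp12, Mmp14 and Mmp19 all had means in the libraries labelled Irf8KO of 0.334 to 0.339 times the WT pristane mean. Mmp12 had a log2 change of −1.55 ± 0.37 (SE, adjusted p = 0.157), Mmp19 of −1.39 ± 0.43 (adjusted p = 0.204) and Mmp14 of −1.27 ± 0.69 (adjusted p = 0.385). The Mmp14 libraries were nearly adjacent, at 13.1 FPKM for the lower WT pristane library and 12.5 FPKM for the higher library labelled Irf8KO, and without WT pristane replicate 1 the change was −0.38. Mmp13 stood at 0.527 and 0.217 FPKM, about 7 and 2 fragments, below both WT pristane libraries (log2 change −1.46 ± 0.52 SE, adjusted p = 0.240). Adam8 had a log2 change of −0.83 ± 0.52 (adjusted p = 0.442), which was −0.12 without WT pristane replicate 2. For Adam17 (−0.31 ± 0.32, 95% interval −1.19 to 0.58) and Timp1 (−0.34 ± 0.47, 95% interval −1.66 to 0.98) the groups overlapped. The sign of both turned with 1 library: Adam17 was at 0.089 without WT pristane replicate 1, and Timp1 at 0.29 without WT pristane replicate 2.

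Ratios within a library do not depend on how libraries were scaled to each other. Mmp9 over Mmp12 was 9.80 with PBS, 3.59 and 1.81 in WT pristane and 25.02 and 31.7 in the libraries labelled Irf8KO. Mmp8 and Mmp9 together were 60.05% and 69.8% of the summed FPKM of the 6 MMP genes in WT pristane and 95.5% and 94.9% in the libraries labelled Irf8KO, against 67.9% with PBS. Their ratio to the sum of Mmp12, Mmp14 and Mmp19 was 1.52 and 2.45 in WT pristane and 21.7 and 18.8 in the libraries labelled Irf8KO. The sum itself, which does depend on scaling, was 7.68 with PBS, 242 and 296 in WT pristane and 807 and 492 in the libraries labelled Irf8KO. Timp1 over Timp2 was 0.0176 with PBS, 3.91 and 9.85 in WT pristane and 2.196 and 1.95 in the libraries labelled Irf8KO. The 6 MMP genes over the 2 TIMP genes stood at 0.188 with PBS, 4.27 and 2.46 in WT pristane and 10.9 and 5.40 in the libraries labelled Irf8KO. For each of these quantities the pristane groups did not overlap, with an exact 2-sided permutation p of 0.333, the smallest the design allows. Mmp8 over Mmp9, Adam8 over Adam17 and the sum of Timp1 and Timp2 were also computed, and there the groups overlapped. Among all single genes 26.1% lay higher and 27.1% lower without overlap. Mmp8 and Mmp9 did so on the higher side, and Mmp12, Mmp13, Mmp14 and Mmp19 on the lower. The separation of their ratios and shares was therefore fixed in advance and is no further result.

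**Figure D3:**
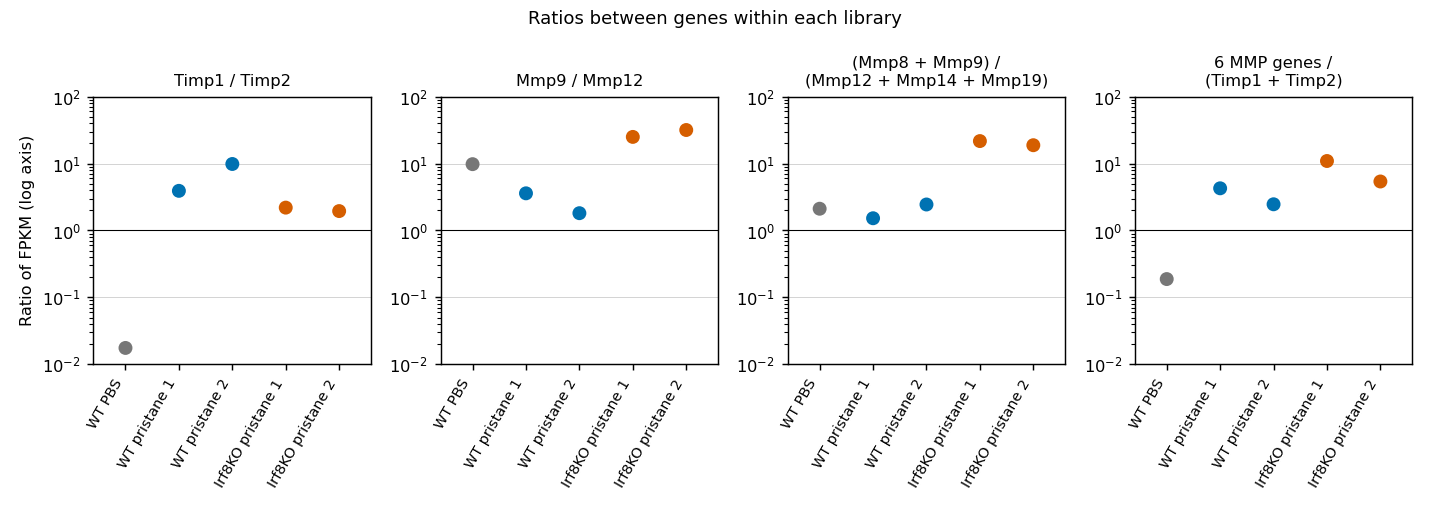
Ratios of FPKM between genes within each of the 5 libraries, on a log axis with a line at 1. Timp1 over Timp2 is below 1 only with PBS, and the 2 libraries labelled Irf8KO are highest for Mmp9 over Mmp12, for Mmp8 and Mmp9 over Mmp12, Mmp14 and Mmp19, and for the 6 MMP genes over the TIMP genes.

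The 3 members Mmp13, Mmp12 and Mmp8, lie in a cluster of 10 MMP genes on chromosome 9. In the GENCODE M21 annotation (GRCm38) Mmp13 spans chr9:7272514-7283331, Mmp12 chr9:7344381-7369499 and Mmp8 chr9:7558456-7568485, all on the plus strand. In that cluster 6 genes, Mmp1a, Mmp1b, Mmp3, Mmp7, Mmp10 and Mmp20, were listed at 0 in all 5 libraries, and Mmp27 reached 1.64 FPKM in WT pristane replicate 2 alone. Across the pristane groups Mmp8 lay higher and Mmp12 and Mmp13 lower in both libraries labelled Irf8KO, although none of the 3 passed the test and the difference between them was not tested. The sequences just before their start sites are shown because these neighbours share a cluster, from RefSeq on GRCm38.p6, 5′ to 3′ on the gene's strand, with letters matching a motif in capitals. RefSeq gives 2 starts for Mmp12.
Mmp13 (chr9:7272384-7272513, capitals RUNX then AP-1): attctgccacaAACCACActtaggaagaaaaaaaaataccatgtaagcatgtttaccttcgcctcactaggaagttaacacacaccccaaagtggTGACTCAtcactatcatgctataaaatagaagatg
Mmp12, downstream start (chr9:7347274-7347373, capitals AP-1): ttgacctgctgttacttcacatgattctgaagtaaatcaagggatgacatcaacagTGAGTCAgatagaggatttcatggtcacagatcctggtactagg
Mmp12, upstream start (chr9:7344297-7344396, capitals PU.1 then C/EBP): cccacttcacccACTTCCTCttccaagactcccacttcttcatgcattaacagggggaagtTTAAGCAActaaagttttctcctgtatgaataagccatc
Mmp8 (chr9:7558329-7558428, capitals C/EBP): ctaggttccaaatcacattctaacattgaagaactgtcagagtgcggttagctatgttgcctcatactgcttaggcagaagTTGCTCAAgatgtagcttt

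AP-1 (Fos and Jun dimers) and RUNX are classic regulators of collagenase genes, C/EBP factors drive granule genes in neutrophils, and PU.1 is the master factor of myeloid cells. The letters searched on both strands were TGANTCA for AP-1, TTGCNNAA for C/EBP, GAGGAAGT for PU.1, TGTGGTT for RUNX, GGGA and TTTCC with 1 base between for NF-kB, GAAA and GAAA with 2 bases between for the interferon-stimulated response element, and GGAA and GAAA with 2 bases between for the composite site of PU.1 with IRF4 or IRF8. Among 32851 RefSeq windows of 300 bases (250 before to 50 after a start), 7.81% held the AP-1 letters, 10.8% C/EBP, 3.20% PU.1, 5.27% RUNX, 0.411% NF-kB, 3.44% the interferon element and 2.72% the composite. The last 2 motifs can overlap each other. Windows were found for 8 of the 10 members; Mmp9 and Mmp19 had none. AP-1 letters occurred in Mmp13, 35 bases before the start, and in the downstream window of Mmp12, 44 bases before it. C/EBP letters occurred in Mmp8 (19 bases before the start), the upstream window of Mmp12 (39) and Adam8 (219). PU.1 letters also stood 221 bases before the Mmp8 start, and the interferon element 146 bases before that of Mmp13. The composite letters occurred in Mmp14 alone among the members, in a stretch shown because it carries the letters of the factor named in the genotype.
Mmp14 (chr14:54431373-54431422, capitals PU.1-IRF composite): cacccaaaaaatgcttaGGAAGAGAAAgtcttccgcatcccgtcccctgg
None of the 7 motifs was found in the windows of Adam17, Timp1 and Timp2. A match describes letters and not binding, and these libraries hold no measure of binding.

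Some members overlap other genes, with strand use not given in the sources used here. All 4570 bases of the Timp1 gene lie within Syn1 on the opposite strand, but Syn1, a neuronal gene, stood at 0.358 to 0.823 FPKM in every library. Mmp12 shares 1261 bases with Mmp1b, which was listed at 0 throughout. Adam17 shares 311 bases with Iah1, at 27.0 to 61.6 FPKM, and Mmp19 shares 789 bases with Tmem198b, at 1.56 to 7.57 FPKM, so fragments at those ends cannot be told apart. The annotation also places the whole of Mmp19 (9915 bases) within the antisense gene Gm47093, and the 10141 bases of Cep295nl within Timp2 on the same strand; no value of either was used here.

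The rest of the MMP, ADAM and TIMP families added few expressed genes. Of 17 other MMP genes 8 were listed at 0 in all 5 libraries, 5 reached 1 FPKM in any library and 1 was called, Mmp25. Mmp25 encodes leukolysin, a membrane-anchored MMP of neutrophils. Mmp25 was listed at 0 with PBS, reached 4.16 and 7.20 FPKM in WT pristane and, where the label is Irf8KO, 17.4 and 12.3 FPKM. Mmp25 entered the test only through its pristane values. It lay higher in both libraries labelled Irf8KO than in WT pristane (log2 change 1.27, adjusted p = 0.179), the same direction of values as for Mmp8 and Mmp9. Of 11 other ADAM genes 4 were tested, and Adam9 and Adam10 rose in both comparisons with PBS. Adam10, the sheddase closest to Adam17 in function, stood at 24.9 FPKM with PBS and between 54.6 and 62.1 FPKM in the 4 pristane libraries (log2 change 1.26 in WT, adjusted p = 0.0396, and 1.19 in the libraries labelled Irf8KO, adjusted p = 0.0457). With libraries scaled to equal sums these adjusted p-values were 0.0535 and 0.0855. Adam9 stood at 7.90 FPKM with PBS and between 29.4 and 35.8 FPKM after pristane (log2 change 1.86, adjusted p = 0.0300, and 1.91, adjusted p = 0.0342). Both were more even across the pristane libraries than Adam8. Adam15 was the most abundant ADAM of this group, at 61.3 FPKM with PBS and 186 FPKM in Irf8KO pristane replicate 2, and passed in no comparison. Of 19 ADAMTS genes 2 were tested and 1, Adamts6, was called lower in WT pristane, from 1.13 FPKM to 0.139 FPKM and a value listed at 0. Adamts6 entered the test only through its PBS value, so a difference was built into its selection. Timp3, the matrix-bound TIMP, stood at 0.0896 FPKM with PBS and 3.00 and 4.32 FPKM in WT pristane (adjusted p = 0.137), and Timp4 was listed at 0 in all 5 libraries.

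Genes that activate MMPs or their makers were read next. Of 11 activator and maturation genes 8 were tested, and 3 rose in WT pristane against PBS, Furin, Plau and Plaur, while 1, Plaur, rose in the libraries labelled Irf8KO. Furin, the convertase that removes the propeptide of MMP14 and of ADAMs, stood at 5.08 FPKM with PBS, 49.0 and 97.2 FPKM in WT pristane (log2 change 3.53, adjusted p = 0.0343), and where the label is Irf8KO 20.1 and 24.3 FPKM. Plau, the urokinase that makes plasmin, stood at 4.07 FPKM with PBS, 26.5 and 29.6 FPKM in WT pristane, and where the label is Irf8KO 0.965 and 1.77 FPKM. Across pristane libraries Plau had a log2 change of −3.64 with an adjusted p of 0.0541, which was 0.00385 when the 4 pristane libraries were fitted alone. In WT pristane against PBS the Furin call was lost with no filter on low values (adjusted p = 0.0545) and the Plau call with a pseudocount of 0.1 (adjusted p = 0.0521). The urokinase receptor gene Plaur rose by 2.10 on the log2 scale in WT pristane (adjusted p = 0.0266) and by 1.47 in the libraries labelled Irf8KO (adjusted p = 0.0378). Bsg, the surface protein that induces MMPs in neighbouring cells, stood at 212 and 167 FPKM in WT pristane, and where the label is Irf8KO 351 and 489 FPKM (log2 change 1.13, adjusted p = 0.146). Prtn3, a neutrophil serine protease, stood at 62.0 FPKM with PBS, 7.53 and 18.0 FPKM in WT pristane, and where the label is Irf8KO 179.9 and 182 FPKM (log2 change between the pristane groups 3.84, adjusted p = 0.0677). In the 4 pristane libraries alone its adjusted p was 0.00716, and both WT pristane libraries lay below PBS (log2 change −2.31, adjusted p = 0.0712).

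The partners and substrates of these proteases were read from lists as well. Of 10 docking and partner genes 3 rose in WT pristane, and 2 of these, Lcn2 and Cd63, also rose in the libraries labelled Irf8KO. Lcn2 encodes lipocalin-2, which is found bound to MMP9 in neutrophils. Lcn2 stood at 9.03 FPKM with PBS, 552 and 891 FPKM in WT pristane, and where the label is Irf8KO 2706 and 1414 FPKM (log2 changes from PBS 6.13 and 7.61, adjusted p = 0.0257 and 0.0274). Cd44, which holds MMP9 at the cell surface, rose in WT pristane by 2.44 on the log2 scale (adjusted p = 0.0336), and Cd63, a partner of TIMP1, by 2.58 (adjusted p = 0.0300). Of 10 genes for the traffic and maturation of ADAM17, among them its carrier Rhbdf2 (iRhom2), 7 were tested and 0 passed in any of the 3 comparisons (limma), with 4, 2 and 3 at an unadjusted p under 0.05 in WT pristane against PBS, Irf8KO against WT pristane and Irf8KO pristane against PBS. Of 16 ADAM17 substrates 13 were tested and 2 rose in WT pristane, the tumour necrosis factor receptors Tnfrsf1a (log2 change 1.62, adjusted p = 0.0317) and Tnfrsf1b (2.88, adjusted p = 0.0415). The Tnfrsf1b call was lost with a pseudocount of 0.1 (adjusted p = 0.0501) and with no filter on low values (adjusted p = 0.0678). Tnf itself stood at 90.2 FPKM with PBS, 737 and 671 FPKM in WT pristane, and where the label is Irf8KO 286 and 122 FPKM (adjusted p = 0.0532 in WT against PBS). Of 16 matrix genes 9 were tested and 3 were called higher in WT pristane, Spp1, Col3a1 and Dcn. Spp1 encodes osteopontin, which MMP9 and MMP12 cut, and stood at 17.6 FPKM with PBS and from 3113 to 5626 FPKM in the pristane libraries. Col3a1 and Dcn were listed at 0 with PBS and entered the test only through their pristane values. None of the 10 AP-1 genes passed in any comparison (limma), with 1, 1 and 2 at an unadjusted p under 0.05 in the same order, and their median log2 change was −0.34 in WT pristane against PBS.

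**Figure D4:**
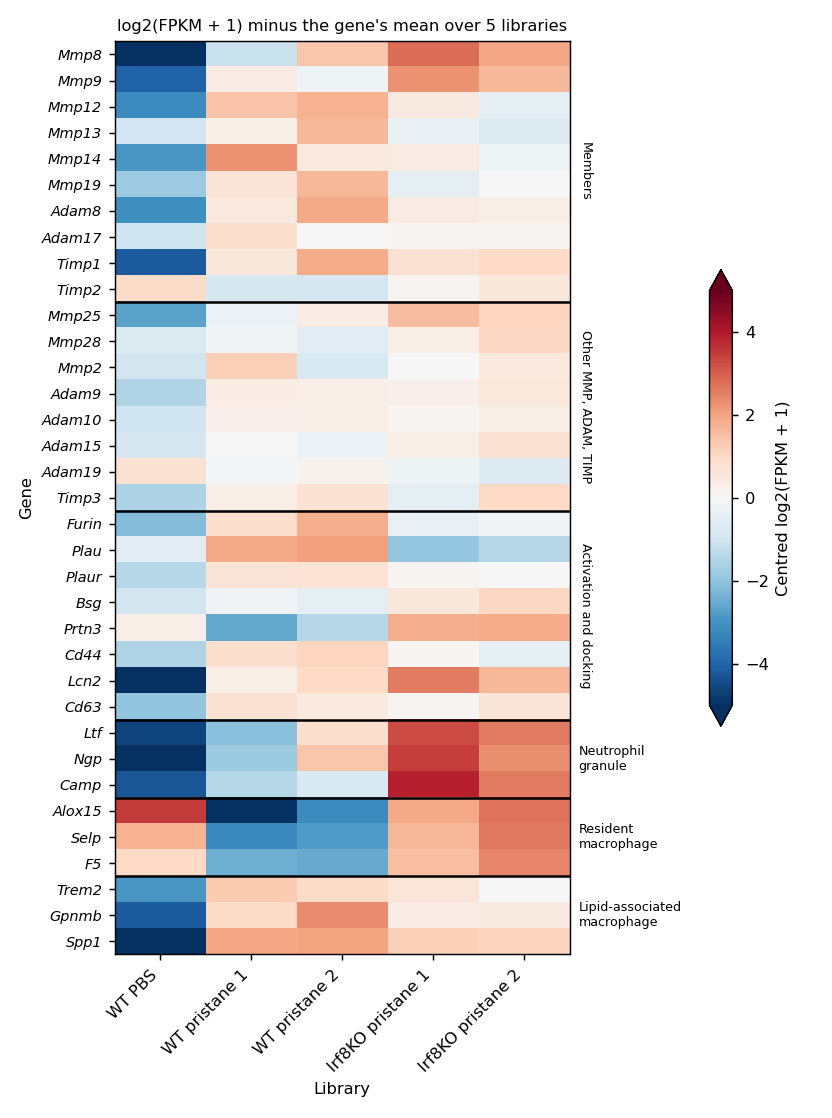
Log2(FPKM + 1) of the 10 genes, of relatives and partners, and of 3 marker genes each for neutrophil granules, resident macrophages and lipid-associated macrophages, each minus its mean over the 5 libraries; colours stop at −5 and 5. Mmp8, Mmp9 and Mmp25 are reddest in the libraries labelled Irf8KO, as are Lcn2, Ltf, Ngp and Camp, while Mmp12, Mmp13, Mmp19 and Plau are reddest in WT pristane. The granule genes drawn are part of a list of 12 whose median log2 change between the pristane groups was 1.67. On that list Chil3 (−2.70) and Cebpe (−1.02), not drawn, lay lower with the Irf8KO label, and Fcnb was at 0.05. The resident macrophage genes drawn are part of a list of 11 with a median log2 change of 4.04 between the pristane groups. On it Timd4 (−0.43), not drawn, lay lower with the Irf8KO label.

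Cells of several kinds were pooled in each library, so fewer cells of a type and less RNA per cell cannot be told apart, and marker genes are given beside the members. The 12 mature neutrophil markers summed to 207 FPKM with PBS, 18320 and 15510 in WT pristane and 46960 and 24300 in the libraries labelled Irf8KO. Most of that sum is S100a8 and S100a9 (29440 and 11880 FPKM in Irf8KO pristane replicate 1). The median log2 change of the 12 between the pristane groups was 0.21, with Retnlg at 2.61 and Il1r2 at −0.95, and 0 of them passed there (limma), with 2 at an unadjusted p under 0.05. Of the 12 genes 10 rose in each comparison with PBS, among them S100a8 and Cxcr2. Il1r2 and Stfa2l1 were the 2 at 0 with PBS. Both, and Asprv1 at 0.6515 FPKM with PBS, entered the test only through their pristane values. The 12 listed genes of neutrophil granules and precursors summed to 77.6 FPKM with PBS, 682 and 5144 in WT pristane and 4216 and 2243 in the libraries labelled Irf8KO. One of them, Chil3, also a macrophage gene, stood at 88.9 and 4000 FPKM in WT pristane, and without it the sums were 593 and 1144 FPKM in WT pristane and 4096 and 2174 where the label is Irf8KO. Mmp8 and Mmp9 are on neither list; the part of neutrophil number in their values was not tested. Set against a neutrophil gene, Mmp9 over Cxcr2 was 1.80 and 2.14 in WT pristane and 3.61 and 3.18 in the libraries labelled Irf8KO. Mmp8 over Ltf, another specific granule gene, was 4.51 and 3.01 in WT pristane and 1.43 and 1.27 in the libraries labelled Irf8KO, so Mmp8 was lower relative to Ltf there while its own level was higher.

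Macrophage and monocyte markers stood as follows. The 9 inflammatory monocyte genes had a median log2 change of −2.78 between the pristane groups, and Ly6c2 stood at 145 and 296 FPKM in WT pristane, and where the label is Irf8KO 42.9 and 19.8 FPKM. Their sums were 4802 and 7656 FPKM in WT pristane against 4456 and 4351 FPKM, and without Chil3 4713 and 3656 FPKM against 4336 and 4281 FPKM. Most of each sum without Chil3 was Fn1 and Cd14, at 2335 and 2859 FPKM and at 1721 and 1256 FPKM where the label is Irf8KO. Fn1 lay higher there than in WT pristane (log2 change 1.10), and Cd14 was at −0.03. Ly6c2, Ccr2, Vcan, Plac8 and Fcgr1 lay lower, from −2.78 to −5.04. The 8 lipid-associated or activated macrophage genes summed to 206 FPKM with PBS, 10200 and 15310 in WT pristane and 9634 and 9613 in the libraries labelled Irf8KO, and 6 of the 8 rose in each comparison with PBS. One of the 6, Olr1, stood at 0.9635 FPKM with PBS and entered the test only through its pristane values. The 11 large resident macrophage genes summed to 2773 FPKM with PBS, 443 and 304 in WT pristane and 1885 and 3018 in the libraries labelled Irf8KO. Timp2 was likewise lowest in WT pristane, but highest with PBS, where the resident macrophage sum was exceeded by Irf8KO pristane replicate 2. Of the 11 resident macrophage genes 7 fell in WT pristane against PBS, and 1, Timd4, in the libraries labelled Irf8KO (log2 change −4.42, adjusted p = 0.0274, limma). Timd4 stood at 26.9 FPKM with PBS, 0.676 and 0.838 in WT pristane and 0.0957 and 0.552 where the label is Irf8KO, unlike the sum of its list. The 7 B cell genes, of which 7 fell in WT pristane and 4 in the libraries labelled Irf8KO, summed to 3152 FPKM with PBS, 53.4 and 15.0 in WT pristane and 231.5 and 119.4 where the label is Irf8KO. The order of groups was that of Timp2. Between the libraries labelled Irf8KO the order was opposite, with Timp2 at 23.1 FPKM in replicate 1 and 30.9 FPKM in replicate 2. Of 7 mast cell genes 5 fell in each comparison with PBS. Of these, Mcpt4, Cpa3, Tpsb2 and Fcer1a lay under 1 FPKM in every pristane library and entered the test only through their PBS values. The 7 genes summed to 328 FPKM with PBS, 190 and 52.4 in WT pristane and 112 and 114 where the label is Irf8KO. Most of each pristane sum was Hdc, at 10.95 FPKM with PBS, 186 and 50.2 in WT pristane and 108 and 110 where the label is Irf8KO. Of 9 T and natural killer cell genes 3 rose in WT pristane, Gzma, Gzmb and Ncr1. These stood at 0.718, 0.360 and 0.345 FPKM with PBS and entered the test only through their pristane values, so a difference was built into their selection. The 9 genes summed to 115 FPKM with PBS, 235 and 182 in WT pristane and 96.8 and 46.5 where the label is Irf8KO. Fibroblast and mesothelial genes, which can be sources of TIMPs and MMP14, summed to 0.0767 FPKM with PBS, where 10 of the 11 were listed at 0, and to 25.6 to 79.8 FPKM after pristane. The share of each cell type in the members' values was not tested.

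**Figure D5:**
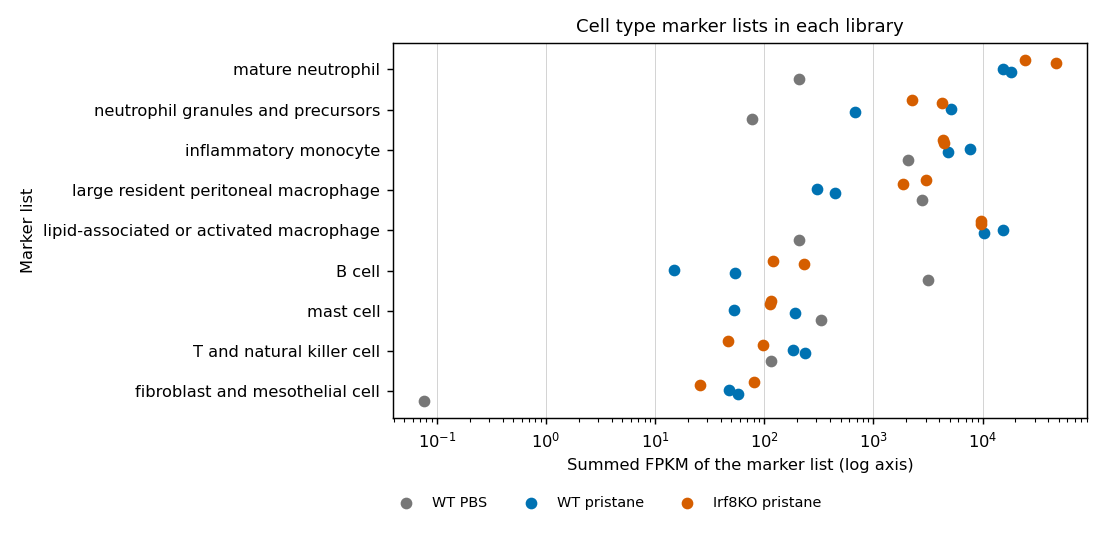
Summed FPKM of each cell type marker list in each of the 5 libraries, on a log axis. Mature neutrophil sums are highest in the libraries labelled Irf8KO (24300 and 46960 FPKM) and lowest with PBS (207 FPKM), a sum carried by S100a8 and S100a9, and the WT pristane libraries are lowest for large resident macrophages (304 and 443 FPKM).

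The genes with profiles most like each member were found by the distance between log2(FPKM + 1) profiles, each centred on its mean over the 5 libraries, among genes with a mean of at least 3. With 5 libraries this is a description only. Nearest to Mmp8 were Stfa3, Ngp and Ltf (distance 1.02 to 1.43), and nearest to Mmp9 were Hp, Chil1 and Cxcr2 (0.589 to 0.830). Stfa3, Ngp and Ltf are expressed in neutrophils, and Cxcr2 is the neutrophil chemokine receptor. Nearest to Mmp12 were Lgals3, Gzma and P2ry6 (0.596 to 0.812), to Mmp13 Il18bp, Nampt and Vim (0.372 to 0.473), to Mmp14 Itga5, Sdc1 and Smox (0.903 to 0.988) and to Mmp19 Rnh1, Gla and Fam129b (0.361 to 0.465). Lgals3 encodes galectin-3, and Itga5 a subunit of the fibronectin receptor. Adam8 lay nearest to Ctsl, Ltb4r1 and Tarm1 (0.415 to 0.561) and Adam17 to Ehd1, Prex1 and Prdx1 (0.176 to 0.185). Timp1 lay nearest to Tgm2, Gpnmb and Dhrs9 (0.803 to 0.952). No member was among the 3 nearest of another.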

How the data were processed

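The authors deposited 1 table of 5 libraries whose values are FPKM, although it is named a count table: the values are not whole numbers, and column sums run from 451694 to 582696. Per the submitters' processing notes BWA, TopHat2 2.0.10, Cufflinks 2.2.1 and Cuffnorm were used, with no role given; the genome build, annotation, strand setting and any scaling between libraries stay unstated, as not given in the sources used here. Groups came from the sample titles. Depth was estimated from single-transcript genes under 0.3 FPKM by taking the commonest value-times-length product as 1 fragment; 72.3% to 82.6% of products near 1 or 2 fragments lay within 0.15 of a whole number.

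The 11117 genes that reached 1 FPKM in any library entered limma-trend (limma 3.58.1, R 4.3.3) as log2(FPKM + 1), a scale that understates changes of low genes. The fit had 3 group means, 2 residual and 1.99 prior degrees of freedom. The design had named this test for values that are not counts. On simulated data a log2 change of 2 was called in 74 of 100 genes for WT pristane against PBS, 86 for Irf8KO against WT pristane and 72 for Irf8KO pristane against PBS, among 11117 genes. The simulated noise was normal, took its variances from the fit itself and was equal in all groups. These counts check the code and do not give the power of the test in the real libraries. Alternatives were another pseudocount, 2 filters, 2 scalings, robust variances, a replicate block, the 4 pristane libraries alone and leaving out each pristane library.

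The members and gene lists were chosen with earlier results of these data known, and the motifs and printed sequences after seeing the values. Named beside the members were genes of each list by smallest p (up to 4 per comparison) or highest level (2), and the 3 nearest profiles (those of Timp2 are not reported here); Outside that rule, chosen after their values were seen, are Elane, G0s2, Timp4, Eif2s3y, the cluster genes listed at 0 and the overlapping genes. The list entry Chi3l3 was matched to Chil3, and Ly6g and Ighm were not matched. The 27 symbols turned into dates were not named.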

Additional observations from a re-analysis of the deposited data

How the results depend on the processing

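The test rests on 2 residual degrees of freedom, and every count of calls across all genes fell to 0 by limma when 1 was taken away. Leaving out each pristane library in turn gave 0 to 0 genes in all 3 comparisons and 0 to 0 of the 10 members, while 2755 to 3755 genes had an unadjusted p under 0.05 for WT pristane against PBS, 1005 to 2529 for Irf8KO against WT pristane and 2242 to 4013 for Irf8KO pristane against PBS. The replicate block also gave 0 genes and 0 members in all 3 comparisons (3450, 2096 and 3443 genes at an unadjusted p under 0.05). The numbers of the pristane libraries are not shown to pair them: the deviations of same-numbered libraries correlated at 0.0448 over 11117 genes. Irf8KO against WT pristane, with 3 calls (0 higher, 3 lower), had 0 with a pseudocount of 0.1, 0 with no filter and 0 with equal sums (2234, 2586 and 2424 genes at an unadjusted p under 0.05), 48 with median-of-ratios scaling (15 higher, 33 lower), 242 among genes whose mean reached 5 FPKM, 264 with robust variances and 431 in the 4 pristane libraries alone, where 1 member passed. Irf8KO pristane against PBS had 424 genes higher and 525 lower, and 336 higher and 726 lower with equal sums, which moved the median of all genes from −0.0505 to −0.24; with no filter 2 of the 4 members called there still passed. Over 337 member values under the alternatives 270 kept direction and call, 56 lost the call, 9 gained it and 2 changed sign, both between the pristane groups: without each library in turn Adam17 ran from −0.70 to 0.089 and Timp1 from −0.97 to 0.29. PBS values of 1 to 5 fragments limit the precision of Timp1, Mmp8, Mmp12 and Mmp14 against PBS.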

Other observations

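The 2 WT pristane libraries were unlike each other in sets of genes that included members, seen after the values were known and not tested. Replicate 2 was higher than replicate 1 for Mmp8 (128 against 21.7 FPKM), for the granule genes Ltf (42.6 against 4.82 FPKM) and Ngp (153 against 15.3 FPKM), for Elane, which encodes neutrophil elastase (8.46 against 0.711 FPKM), and for Chil3 (4000 against 88.9 FPKM). Vcan and Ccr2, genes of inflammatory monocytes, were higher in replicate 2 as well, at 71.2 against 10.6 FPKM and 85.5 against 27.1 FPKM. Of the 9 genes on that list Fn1 and Cd14 alone were higher in replicate 1, at 1562 against 926 FPKM and 2160 against 1037 FPKM. Without Chil3 the sum of the list was higher in replicate 1 (4713 against 3656 FPKM). Mmp14, Mmp9 and Adam17 were higher in replicate 1, as were Sdc1, which encodes the proteoglycan syndecan-1 (67.3 against 24.01 FPKM), and G0s2, a neutrophil gene (385 against 65.8 FPKM). Sdc1 also differed between the libraries labelled Irf8KO (27.1 and 8.04 FPKM), as did Elane (18.1 and 2.57 FPKM).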
